A study of Mus musculus with 16 samples.

Results

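The Wnt ligands, their receptors and the secreted proteins that bind either of them were followed in mouse pancreatic cancer organoids. The group holds 44 genes of the 55487 listed in the deposited gene tables, chosen by symbol: 19 Wnt ligands, 10 frizzled receptors, the co-receptors Lrp5 and Lrp6, the secretion proteins Porcn and Wls, 8 secreted inhibitors and 3 R-spondins. Symbols were assigned by matching gene identifiers without their version to GENCODE mouse release M21. The organoids, epithelial bodies grown in a gel of basement membrane proteins, numbered 9 lines from metastases and 7 lines from primary tumors of the same 6 mice of the KPC model, strain C57BL6/J per the labels. The alleles, the Cre driver and the ages of the mice are not given in the labels used here. Metastasis replicate 1 came from the liver of mouse 1, replicates 9, 2 and 3 from the peritoneum of mice 2, 3 and 4, replicates 4 and 5 from the diaphragm and lung of mouse 5, and replicates 6, 7 and 8 from the liver, diaphragm and ovary of mouse 6. Tumor replicates 1 to 5 came from the mice with the same numbers, and replicates 6 and 7 both from mouse 6. All lines grew in the same medium, whose listed additives include R-spondin-conditioned medium, the BMP inhibitor noggin, EGF, FGF-10 and the TGF-beta receptor inhibitor A83-01, and no Wnt protein.

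Wnt ligands are lipid-modified by Porcn in the endoplasmic reticulum and carried to the cell surface by Wls. At the surface a ligand brings a frizzled receptor together with Lrp5 or Lrp6, after which beta-catenin escapes destruction and acts with TCF factors in the nucleus. R-spondins keep frizzleds on the surface by acting through Lgr receptors against the ubiquitin ligases Rnf43 and Znrf3, while Dkk proteins such as Dkk1 bind the co-receptors, and Sfrp proteins and Wif1 bind the ligands. In the pancreas, Wnt proteins can come from the epithelium itself or from the surrounding stroma, and human tumor organoids are known to differ in whether they need them from outside.

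Libraries held 24624420 to 49965492 expected counts each. Genes that collect ribosomal RNA reads took 0.0185% to 72.7% of the counts in metastasis lines, with a median of 12.3%, against 0.0463% to 29.95% in tumor lines, with a median of 0.272%. The extremes were metastasis replicate 4 and tumor replicate 2. Levels are therefore given as TPM (transcript abundance per length, scaled to a fixed total per library), rescaled to the same total without those genes. The epithelial markers Epcam, Cdh1, Krt8, Krt18 and Krt19 summed to 2990 to 6742 TPM in metastasis lines and 3137 to 5201 TPM in tumor lines. The 7 fibroblast and stellate cell markers summed to 0.0400 to 0.273 TPM in metastasis lines and 0.0100 to 0.120 TPM in tumor lines. None of the 7 reached 1 TPM in any line, and 5 stayed under 0.1 TPM throughout.

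Of the 44 genes, 8 reached 1 TPM in all 16 lines, 8 reached it in some lines only, 13 had a highest line between 0.1 and 1 TPM, and 15 stayed under 0.1 TPM in every line. The 8 genes at 1 TPM or more throughout were the ligand Wnt7b, the receptors Fzd1, Fzd5 and Fzd6, both co-receptors and both secretion proteins. A ligand, the secretion proteins, frizzleds and co-receptors were thus all at or above 1 TPM in every line. None of the 8 secreted inhibitors of the group and none of its R-spondins reached 1 TPM in any line. Notum, a secreted modulator outside the group, did so in some lines and is given below. These cultures were measured in bulk, so fewer cells of a type and less RNA per cell cannot be told apart.

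**Figure D1:**
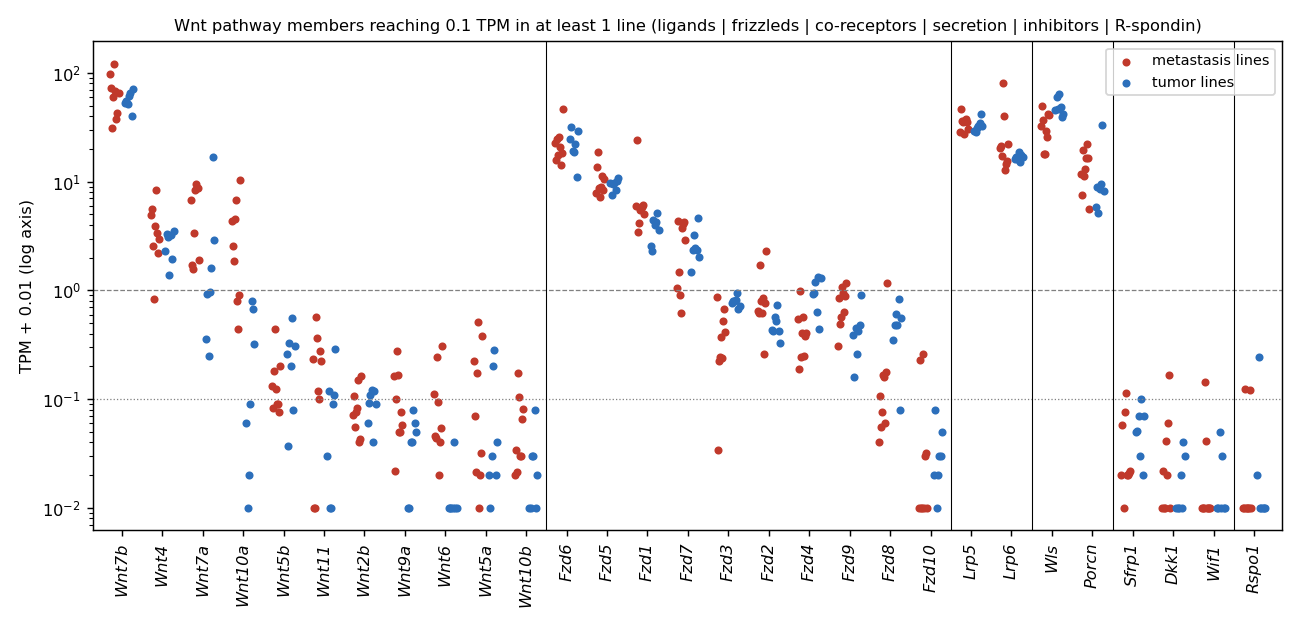
Level of the 29 members that reached 0.1 TPM in at least 1 of 16 lines, as TPM + 0.01 on a log axis, 1 point per line, metastasis lines left of tumor lines for each gene. Vertical lines part ligands, frizzleds, co-receptors, secretion proteins, inhibitors and the R-spondin Rspo1, and the dashed and dotted lines mark 1 and 0.1 TPM. Wnt7b stands above all other ligands, and inhibitors stay at the bottom of the plot.

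Wnt7b, a ligand of epithelia in the lung, kidney and pancreas, was the most abundant ligand in 16 of 16 lines. It ran from 31.3 TPM over a median of 65.2 to 122 TPM in metastasis lines, and from 39.9 over a median of 54.9 to 71.6 TPM in tumor lines. The groups overlapped throughout, with the highest metastasis line in the lung of mouse 5 and the lowest in the peritoneum of mouse 4. In edgeR's quasi-likelihood fit over all genes with a term for each mouse, the fold change of metastasis over tumor lines was 0.08 on the log2 scale (SE 0.20, adjusted p = 0.814), and all later values on the log2 scale with an SE are such fold changes. Wnt7b made up 74.4% to 87.6% of summed ligand TPM in metastasis lines, with a median of 83.1%, and 66.9% to 95.3% in tumor lines, with a median of 92.6%. Transcript Wnt7b-202 led in all 16 lines and carried 76.8% ± 2.74 of the gene in metastasis lines (SD, n = 9) and 80.8% ± 3.27 in tumor lines (SD, n = 7).

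What stood behind Wnt7b varied from line to line. Wnt7a, the close relative of Wnt7b, was the second ligand in 5 metastasis lines and 1 tumor line. Wnt4, a ligand of kidney and reproductive tract development, was the second in 2 metastasis lines and 6 tumor lines. Wnt10a, a ligand known from skin, hair and teeth, was the second in 2 metastasis lines, those from the peritoneum of mouse 2 and the diaphragm of mouse 5, and in no tumor line. Wnt4 had 0.828 to 8.39 TPM in metastasis lines (median 3.38) and 1.37 to 3.50 TPM in tumor lines (median 3.10), and its groups overlapped (log2 change 0.46, SE 0.36, adjusted p = 0.395).

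Summed over all 19 ligands, RNA ran from 37.7 to 142 TPM in metastasis lines (median 81.9) and from 55.6 to 79.1 TPM in tumor lines (median 59.6). The tumor lines lay inside the range of the metastasis lines. Wnt10a supplied 0.857% to 12.7% of the sum in metastasis lines and 0% to 1.12% in tumor lines.

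**Figure D2:**
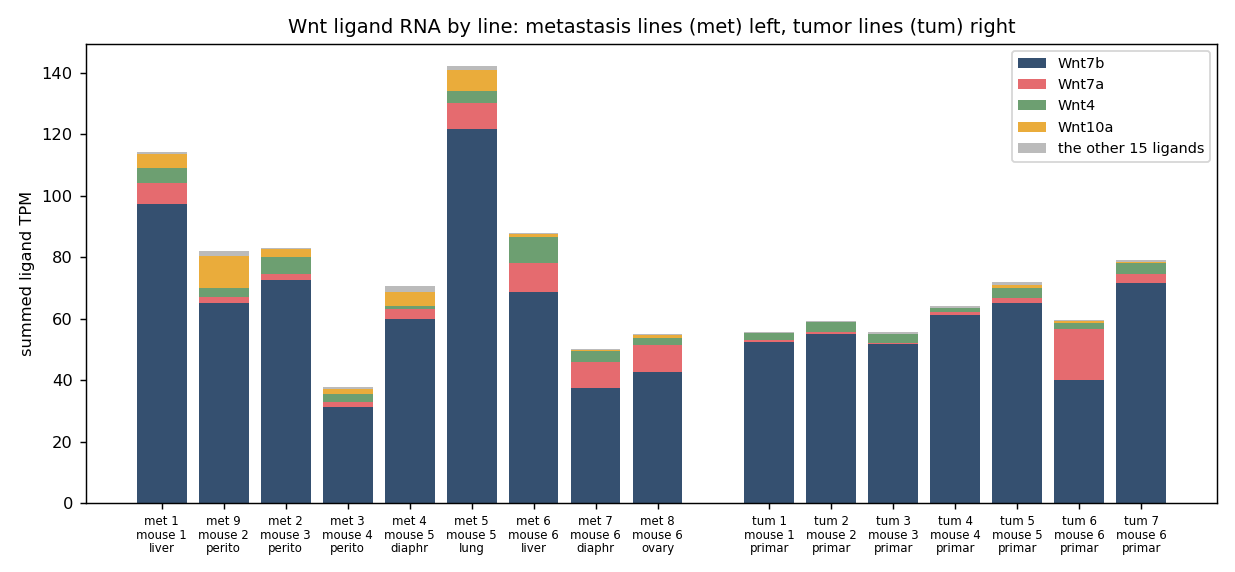
Summed ligand TPM per line, stacked by ligand, with the 9 metastasis lines on the left and the 7 tumor lines on the right, each marked with replicate, mouse and site. Wnt7b fills most of every bar, the lung line of mouse 5 has the tallest bar at 142 TPM, and Wnt7a takes 28.05% of tumor replicate 6.

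Among the 7 ligands with a highest line between 0.1 and 1 TPM, Wnt11 reached 0.563 TPM, Wnt5b 0.551 TPM and Wnt5a 0.499 TPM. Wnt5a, Wnt5b and Wnt11 are ligands best known for signaling without beta-catenin. Wnt6 reached 0.297 TPM, Wnt9a 0.265 TPM, Wnt10b 0.166 TPM and Wnt2b 0.155 TPM. Wnt2b is a ligand of the stroma in gut. The highest values of Wnt11, Wnt9a and Wnt10b came from metastasis replicate 4, on 5, 5 and 1 counts in the library with 72.7% of its counts in ribosomal RNA genes. Without that line they were at most 0.354, 0.156 and 0.0936 TPM. The 8 remaining ligands, Wnt1, Wnt2, Wnt3, Wnt3a, Wnt8a, Wnt8b, Wnt9b and Wnt16, stayed under 0.1 TPM. Wnt3a had 0 counts in all 16 lines, which allows 3 counts per library, or 0.0601 to 0.446 CPM (counts scaled to library size) outside the ribosomal RNA genes.

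Some ligand genes are neighbors in the genome. Wnt6 (chr1:74771892-74785322, plus strand, GRCm38) ends 6.193 kb before Wnt10a (chr1:74791516-74804179, plus strand). Wnt6 held 29 counts over the 9 metastasis lines, with some in every one, and 1 count over the 7 tumor lines. Wnt6 did not pass the filter on low counts, and without that filter its fold change was 3.78 on the log2 scale (edgeR adjusted p = 0.00416). That fit called 8.87% of all genes. The fold change of Wnt6 rests on 1 tumor count, and 10 of its 29 metastasis counts came from metastasis replicate 9. Wnt10b and Wnt1 lie 11.7 kb apart on chromosome 15, and on chromosome 11 Wnt3a and Wnt9a lie 16.2 kb apart and Wnt9b and Wnt3 24.3 kb. In each of these 3 pairs at least 1 gene was under 0.1 TPM in every line.

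Frizzled RNA came from several receptors at once. Fzd6, a frizzled best known for tissue polarity, led in 15 of 16 lines, at 14.1 to 46.6 TPM in metastasis lines (median 20.9) and 10.99 to 31.6 TPM in tumor lines (median 22.4). Fzd5, a receptor for beta-catenin signaling in gut and pancreatic epithelium, had 7.23 to 18.6 TPM in metastasis lines (median 9.01) and 7.54 to 10.8 TPM in tumor lines (median 9.75). The groups overlapped for both, with log2 fold changes of 0.06 (SE 0.19, adjusted p = 0.853) for Fzd6 and 0.10 (SE 0.15, adjusted p = 0.688) for Fzd5.

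Fzd1 had 3.43 to 24.2 TPM in metastasis lines (median 5.84) and 2.28 to 5.19 TPM in tumor lines (median 3.98). The highest value was the peritoneal line of mouse 3, the 1 line in which Fzd1 was the leading frizzled; the other metastasis lines reached at most 6.06 TPM. Fzd7, a receptor of stem cells in gut, had 0.603 to 4.32 TPM in metastasis lines (median 2.92) and 1.46 to 4.61 TPM in tumor lines (median 2.35).

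The other frizzleds were near or below 1 TPM. Fzd2 ran from 0.250 to 2.29 TPM in metastasis lines and from 0.321 to 0.731 TPM in tumor lines, and Fzd9 from 0.296 to 1.17 TPM in metastasis lines and from 0.151 to 0.902 TPM in tumor lines. Fzd3, a receptor of axon guidance, ran from 0.0241 to 0.866 TPM in metastasis lines and from 0.670 to 0.932 TPM in tumor lines. Its tumor lines were close together and its metastasis lines spread below and among them. Fzd10 reached 0.250 TPM.

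Of the 8 genes at 1 TPM or more in all lines Lrp5 varied least, with its highest line 1.68 times its lowest. It had 27.4 to 46.2 TPM in metastasis lines (median 35.0) and 28.9 to 41.9 TPM in tumor lines (median 32.3). Lrp6 had 12.8 to 80.1 TPM in metastasis lines (median 20.6) and 15.1 to 18.8 TPM in tumor lines (median 16.7), and the log2 fold change was 0.31 (SE 0.24, adjusted p = 0.398). The 2 highest Lrp6 lines were both from mouse 5, with 80.1 TPM in the diaphragm line and 40.0 TPM in the lung line, against 15.1 TPM in the tumor line of that mouse, while the metastasis lines of the other mice reached at most 22.1 TPM.

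Lrp6 lies at chr6:134446476-134566965 on the minus strand (GRCm38), and its neighbors were examined after its values had been seen. In mouse 5, the 34 tested protein-coding genes within 5 Mb of Lrp6 had a median log2 difference of 1.34 between the diaphragm line and the tumor line, and of 1.27 between the lung line and the tumor line. The 114 genes 5 to 15 Mb away had medians of 0.09 and -0.14 for the same 2 lines, and all 15573 genes tested had medians of -0.04 and -0.01. Of the 34 neighbors, 30 were higher in the diaphragm line and 32 in the lung line. The higher level of Lrp6 in mouse 5 thus came with higher levels of most genes beside it. Both differences use the same tumor line. Past 5 Mb the values were mixed. Genes from Ndufa9 to Cracr2a, at -7.62 to -6.89 Mb, were all higher in both lines, by at least 1.23. Genes from Pex5 to C1ra, at -10.0 to -9.93 Mb, were all lower in both. The median within 5 Mb was 0.31 to 0.48 in the metastasis lines of mice 1 to 4, and -0.16 to 0.20 in those of mouse 6. Ribosomal RNA genes took 72.7% of the counts of the diaphragm line and 4.16% of the lung line.

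**Figure D3:**
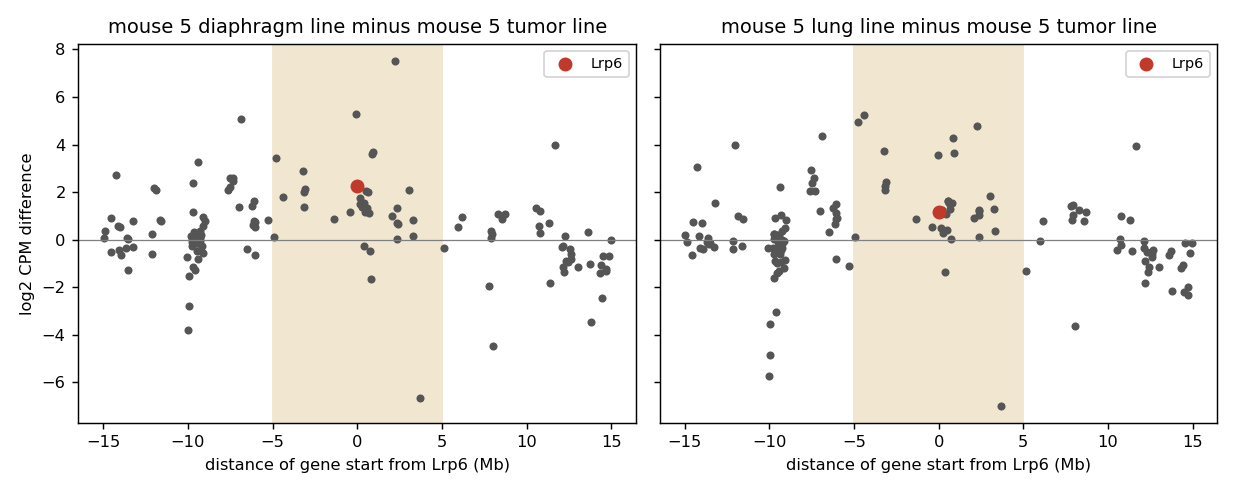
Difference in log2 CPM between the diaphragm line (left) or lung line (right) of mouse 5 and its tumor line, for Lrp6 and protein-coding genes within 15 Mb, against distance from Lrp6 in Mb. The shaded band marks 5 Mb on each side, where the medians are 1.34 and 1.27, and the red point is Lrp6.

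Porcn, the acyltransferase that lipid-modifies Wnt proteins, had 5.55 to 22.3 TPM in metastasis lines (median 13.1) and 5.15 to 33.0 TPM in tumor lines (median 8.51). The highest of all lines was tumor replicate 6; the other tumor lines reached at most 9.53 TPM. Transcript Porcn-203 led in all 16 lines, with 58.4% ± 10.5 in metastasis lines (SD, n = 9) and 68.3% ± 5.81 in tumor lines (SD, n = 7). Porcn-207, annotated as a target of nonsense-mediated decay, took 3.69% to 19.5% in metastasis lines and 0% to 4.51% in tumor lines.

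Wls, the carrier of Wnt proteins to the surface, was split over several transcripts. Wls-206, also annotated as a target of nonsense-mediated decay, led in 13 lines and carried 39.1% ± 3.94 in metastasis lines (SD, n = 9) and 34.8% ± 2.72 in tumor lines (SD, n = 7). The protein-coding Wls-201 led in the other 3 lines. These shares are the deposited estimates, in which reads that fit several transcripts are divided, and no test was run on them.

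The 8 secreted inhibitors of the group were low or not detected. Dkk1, which blocks Lrp5 and Lrp6, reached 0.156 TPM, Wif1 0.132 TPM and Sfrp1 0.104 TPM, each in a metastasis line. The Wif1 value was 1 count in metastasis replicate 4, and the next highest line had 0.0400 TPM. Without that line Wif1 and Wnt10b would stand among the genes under 0.1 TPM. Dkk2, Dkk3, Sfrp2, Sfrp4 and Sfrp5 stayed under 0.1 TPM in all lines. Dkk1 summed to 20 counts over 9 metastasis lines and 6 counts over 7 tumor lines. Sfrp1 summed to 27 counts over 9 metastasis lines and 50 counts over 7 tumor lines. Neither was tested, as both were below the filter on low counts. Of the R-spondins, Rspo1 reached 0.234 TPM in tumor replicate 2 on 1 count in that line, Rspo3 had 4 counts over the metastasis lines and 7 over the tumor lines, and Rspo2 had 0 counts in all 16 lines.

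The comparison of stages asked which of these genes differ between metastasis and tumor lines of the same animals. In the edgeR fit, 18 of the 44 genes passed the filter on low counts: 5 ligands, 9 frizzleds, both co-receptors and both secretion proteins. Of the 18, 4 passed an adjusted p of 0.05, Wnt10a higher and Fzd4, Fzd8 and Wls lower in metastasis lines. That is 22.2% of those tested, where 16.5% of all 15573 genes tested passed, 6.59% higher and 9.92% lower. The median log2 fold change was 0.09 over the 18 genes and -0.02 over all genes tested. Of the 18, 0 had groups without overlap in TPM. Over all genes tested, judged on log2 CPM instead, 1.12% had groups without overlap, 0.36% higher and 0.758% lower.

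The 4 calls were close to the threshold. Leaving out 1 line at a time left between 0 and 6 of the 18 genes called, and 7.19% to 24.7% of all genes. With the ribosomal RNA share as a covariate, an alternative chosen after seeing the data, 0 of the 18 were called. Of the 18, 9 then had an unadjusted p under 0.05. That covariate left 12.1% of all genes called and 31.9% at an unadjusted p under 0.05. DESeq2 called 7 on all lines and 25.5% of all genes. The 7 were the 4 and Wnt7a, Fzd1 and Fzd3. In edgeR, Fzd1 was at 0.69 on the log2 scale (SE 0.25, adjusted p = 0.0735) and Fzd3 at -1.44 (SE 0.53, adjusted p = 0.0809), and the others that were not called had adjusted p between 0.113 and 0.917. Without tumor replicate 6 Fzd1 was called (adjusted p = 0.0381), and without metastasis replicate 8 Fzd3 was called (adjusted p = 0.0446). The part of the ribosomal RNA share in these differences was not tested further.

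**Figure D4:**
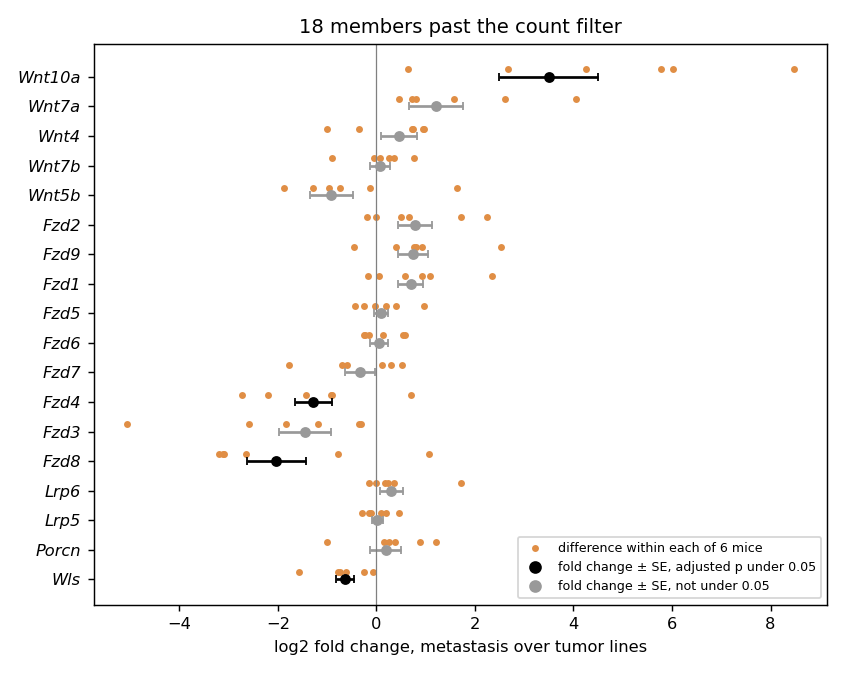
Log2 fold change of metastasis over tumor lines with its SE for the 18 members tested, from the fit with mouse terms, black where the adjusted p was under 0.05 and grey otherwise; small orange points are the differences within each of the 6 mice. Wnt10a lies to the right with 3.50, and Fzd4, Fzd8 and Wls lie to the left of 0.

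Wnt10a had 0.430 TPM in its lowest, 2.56 in its median and 10.4 in its highest metastasis line, against 0, 0.0804 and 0.781 TPM in tumor lines. It summed to 2104 counts over 9 metastasis lines and 175 counts over 7 tumor lines. Tumor replicates 1, 2, 3 and 4 held 5, 0, 1 and 7 counts. Wnt10a thus passed the filter on low counts mainly through its metastasis lines, and the size of its fold change rests on few tumor counts. The fold change was 3.50 on the log2 scale (SE 1.00, adjusted p = 0.0355), and Wnt10a was higher in 6 of 6 mice. The groups overlapped only through metastasis replicate 7. It came from mouse 6, whose metastasis lines had 0.430 to 0.901 TPM and whose tumor lines had 0.311 and 0.670 TPM. In mice 1 to 5 the metastasis lines had 1.85 to 10.4 TPM and the tumor lines 0 to 0.781 TPM. The call was lost when any of 10 single lines was left out, namely metastasis replicates 1, 2, 3, 5 and 9 and tumor replicates 1 to 5, with adjusted p between 0.0579 and 0.0820 and log2 fold changes of at least 2.98. With counts summed per mouse and stage Wnt10a stayed called (adjusted p = 0.0331). The call was lost without the 2 libraries richest in ribosomal RNA and with the ribosomal RNA share as a covariate.

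Wnt7a had 1.56, 6.71 and 9.51 TPM in its lowest, median and highest metastasis line, against 0.240, 0.965 and 16.7 TPM in tumor lines. Tumor replicate 6 had the highest level of all lines, and the other tumor line of mouse 6 had 2.88 TPM. Wnt7a was higher in 6 of 6 mice by the mean log2 CPM of each, although in mouse 6 the mean TPM was lower in the metastasis lines than in the tumor lines, and its fold change of 1.20 on the log2 scale (SE 0.55) did not pass the threshold (adjusted p = 0.145). Without tumor replicate 6 it was 1.93 (adjusted p = 0.00505), and without mouse 6 it was 1.99 (adjusted p = 0.0362).

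Fzd4, the frizzled that also serves Norrin in retinal vessels, had 0.181, 0.392 and 0.975 TPM in its lowest, median and highest metastasis line, against 0.430, 0.934 and 1.32 TPM in tumor lines. Its log2 fold change was -1.28 (SE 0.37, adjusted p = 0.0364). It was lower in metastasis lines in 5 mice and higher in mouse 4, and the groups overlapped. The call was lost without any of 11 single lines, metastasis replicates 1, 2, 4, 5, 7 and 9 and tumor replicates 1, 2, 3, 5 and 7, with adjusted p between 0.0608 and 0.122, and with counts summed per mouse and stage (adjusted p = 0.0871).

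Fzd8 had 0.0306, 0.0965 and 1.15 TPM in its lowest, median and highest metastasis line, against 0.0700, 0.472 and 0.821 TPM in tumor lines. The highest of all was the peritoneal line of mouse 2, while the other metastasis lines reached at most 0.167 TPM, and the lowest tumor line was replicate 6. The log2 fold change was -2.03 (SE 0.60, adjusted p = 0.0388), with lower values in metastasis lines in 5 of 6 mice. The call was lost without any of 11 single lines, metastasis replicates 1, 2, 3, 4, 5 and 7 and tumor replicates 1, 3, 4, 5 and 7, with adjusted p between 0.0613 and 0.125, and it was lost without the mouse terms (-1.26, adjusted p = 0.205) and with counts summed per mouse and stage (adjusted p = 0.0616).

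Wls had 17.8, 32.4 and 49.7 TPM in its lowest, median and highest metastasis line, against 39.1, 46.6 and 63.9 TPM in tumor lines. Both metastasis lines of mouse 5 were lowest, and the ranges overlapped. The log2 fold change was -0.64 (SE 0.18, adjusted p = 0.0322). On the CPM scale Wls was lower in 6 of 6 mice, in mouse 3 by 0.07 on the log2 scale, where TPM was 49.7 in the metastasis line and 46.6 in the tumor line. The call was lost without any of 10 single lines, metastasis replicates 1, 3, 4, 5, 7 and 9 and tumor replicates 1, 2, 4 and 5, with adjusted p between 0.0526 and 0.0922; without tumor replicate 5 the log2 fold change was -0.42. It was lost also with counts summed per mouse and stage (adjusted p = 0.0519).

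**Figure D5:**
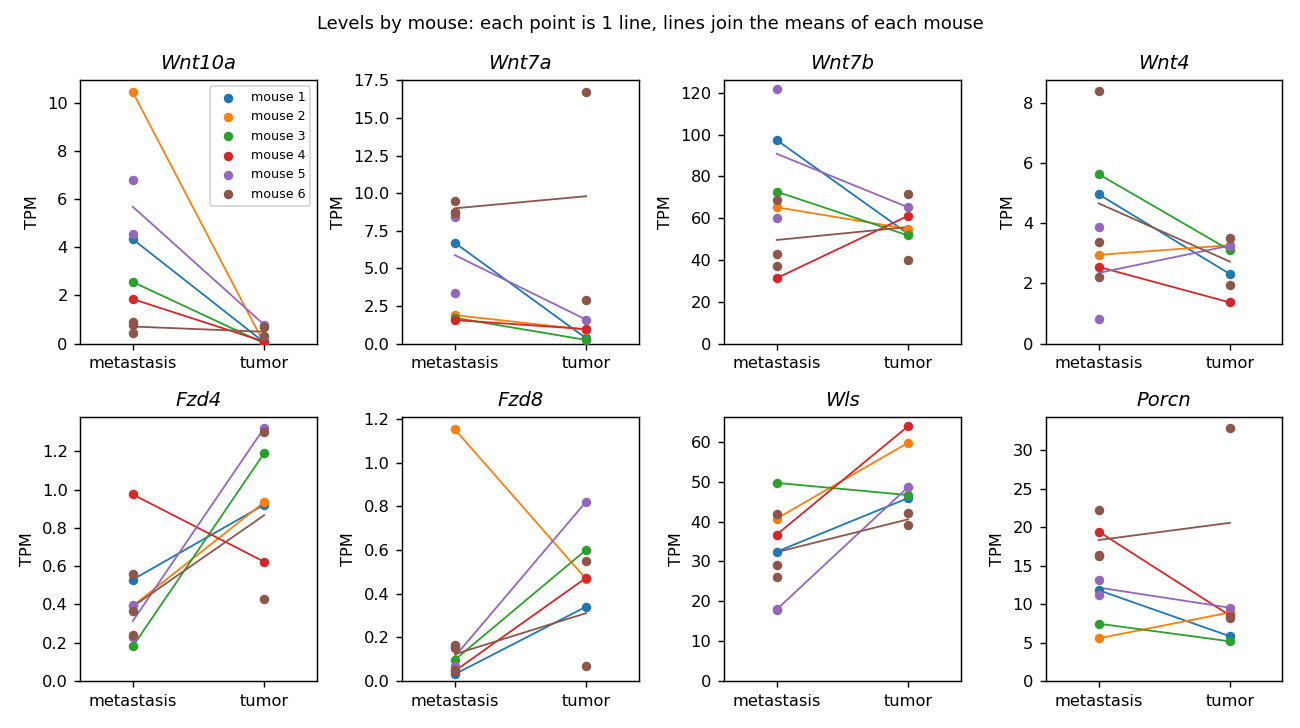
TPM of 8 members with metastasis lines on the left and tumor lines on the right of each panel, 1 point per line, colored by mouse, with lines joining the mean of each mouse. Wnt10a reaches 10.4 TPM in metastasis lines and at most 0.781 TPM in tumor lines, the mean of Wls is lower in metastasis lines in each mouse but mouse 3, and tumor replicate 6 of mouse 6 stands at the top of the tumor lines for Wnt7a with 16.7 TPM and Porcn with 33.0 TPM.

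The 250 bases before the start of Fzd4 and Wls are shown as the start regions of genes called lower in metastasis lines. Fzd8, also called lower, is not shown. Sequences are from RefSeq on GRCm38.p6, plus strand, 5′ to 3′, at chr7:89404116-89404365 for Fzd4 and chr3:159839400-159839649 for Wls. Capitals mark the GC box GGGCGG, the core bound by Sp factors, on either strand, so that CCGCCC is its other-strand form.
Fzd4: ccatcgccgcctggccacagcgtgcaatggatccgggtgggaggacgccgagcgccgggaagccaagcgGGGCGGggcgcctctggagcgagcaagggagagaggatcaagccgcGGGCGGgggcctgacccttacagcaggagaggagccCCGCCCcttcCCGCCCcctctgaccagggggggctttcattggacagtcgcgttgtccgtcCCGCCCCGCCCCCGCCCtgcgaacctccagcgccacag
Wls: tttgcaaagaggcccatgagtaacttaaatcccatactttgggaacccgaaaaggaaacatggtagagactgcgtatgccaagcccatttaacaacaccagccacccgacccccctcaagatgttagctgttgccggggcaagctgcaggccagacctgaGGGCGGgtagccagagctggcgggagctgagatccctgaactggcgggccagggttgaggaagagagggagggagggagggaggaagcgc
The Fzd4 stretch is 72.8% G and C and holds 7 GC boxes, and the Wls stretch is 58% G and C and holds 1. Neither holds CTTTGA, the core of TCF sites, on either strand, so the motifs do not overlap here. Over 32851 promoter windows of the same length, 32.7% hold at least 1 GC box and 13.8% at least 1 CTTTGA. Such matches describe letters in these windows, not binding.

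Differences between mice were tested by the mouse terms of the same fit. By edgeR 0 of the 18 genes passed, where 0.154% of all genes did, and 5 had an unadjusted p under 0.05, as had 17.1% of all genes: Wnt7a, Fzd1, Fzd7, Lrp6 and Porcn. A DESeq2 likelihood ratio test called the same 5 genes, and 12.1% of all genes, with adjusted p of 0.000399 for Wnt7a, 0.0126 for Fzd7, 0.0141 for Fzd1, 0.0320 for Porcn and 0.0357 for Lrp6. Without tumor replicate 5, edgeR called Lrp6 (adjusted p = 0.0490) and 0.66% of all genes. That line is the only tumor line of mouse 5, so the term of mouse 5 then rests on its metastasis lines alone. In that fit a difference between mice cannot be told from a difference between the stages of mouse 5. Lines of 1 mouse share their source, and mice 1 to 4 gave 1 line per stage, so these terms rest on few lines. Wnt7a was highest in mouse 6 in both stages, at 8.71 to 9.51 TPM in its metastasis lines and 2.88 and 16.7 TPM in its tumor lines.

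Differences between metastatic sites were tested by asking whether peritoneum, liver, diaphragm, lung and ovary lines departed equally from the tumor lines of their mice. By edgeR 0 of the 18 genes passed and 0 had an unadjusted p under 0.05, and 0% of all genes passed, with 266 at an unadjusted p under 0.05. DESeq2 called 0 of the 18 and 44 of all genes. Lung and ovary gave 1 line each, and a p that misses the threshold does not show that the sites are alike.

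Further genes of the pathway were read from the same fit, in lists chosen with earlier results of these data known. Of 16 further receptors and co-receptors, 14 were tested. In metastasis lines 1 was higher and 2 were lower, with a median log2 fold change of 0.21. That is 21.4% of those tested, where 16.5% of all genes tested passed, 6.59% higher and 9.92% lower. Lgr6, an R-spondin receptor, had 0.360, 1.62 and 7.08 TPM in its lowest, median and highest metastasis line, against 0, 0.0275 and 0.690 TPM in tumor lines (4.16 on the log2 scale, SE 1.13, adjusted p = 0.0292; higher in 6 of 6 mice). Lgr6 summed to 1942 counts over the metastasis lines and 126 over the tumor lines, so the size of its change rests on few tumor counts. Its call was lost without any of 9 single lines, with adjusted p of at most 0.0800. These were metastasis replicates 1, 2, 3 and 9 and tumor replicates 1 to 5.

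Gpc3, a cell-surface glypican that can bind Wnt proteins, had at most 0.0728 TPM in metastasis lines and 0.340 to 10.9 TPM in tumor lines (-6.55 on the log2 scale, SE 0.63, adjusted p = 0.000226). Gpc3 summed to 18 counts over the metastasis lines and 2220 over the tumor lines. It was the 1 tested gene of this list whose groups did not overlap in TPM. Judged on log2 CPM, 0.758% of all genes tested were lower without overlap. Ror1, a Wnt5a receptor of the list that did not pass the filter on low counts, did not overlap either, with at most 0.0200 TPM in metastasis lines and 0.0300 to 0.670 TPM in tumor lines (9 and 478 counts over the groups), and was singled out after its values were seen. Ptk7, a co-receptor of polarity signaling, had 1.31 to 11.6 TPM in metastasis lines and 4.37 to 24.5 TPM in tumor lines (-1.24 on the log2 scale, SE 0.34, adjusted p = 0.0303). Its call was lost without any of 6 single lines, metastasis replicates 1, 4 and 5 and tumor replicates 1, 5 and 7, with adjusted p of at most 0.106, and with counts summed per mouse and stage (adjusted p = 0.0878).

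Of the genes that act between R-spondin and frizzled turnover, Lgr4, Rnf43 and Znrf3 reached 1 TPM in all 16 lines, Lgr5 in 15 and Lgr6 in 6. Lgr4 had 18.4 to 39.0 TPM in metastasis lines and 24.6 to 35.0 TPM in tumor lines, and Rnf43 had 10.8 to 27.1 TPM in metastasis lines and 13.8 to 24.7 TPM in tumor lines. Lgr5 had 1.04, 4.41 and 8.45 TPM in its lowest, median and highest metastasis line, against 0.955, 1.88 and 3.03 TPM in tumor lines, and missed the threshold (0.98 on the log2 scale, SE 0.33, adjusted p = 0.0620); without tumor replicate 6 it passed (adjusted p = 0.0312). Znrf3 was at -0.33 on the log2 scale (SE 0.20, adjusted p = 0.255).

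Of 10 further secreted modulators 2 were tested. Apcdd1, a membrane inhibitor of Wnt signaling, was higher in metastasis lines (2.87 in log2, SE 0.61, adjusted p = 0.0108). Apcdd1 had 0.398 to 3.10 TPM in metastasis lines and 0.0701 to 0.722 TPM in tumor lines. It summed to 1757 and 240 counts, so the size of its change rests on few tumor counts. The other modulator tested was Notum, at 0.347 to 7.01 TPM in metastasis lines (median 4.26) and 0 to 6.52 TPM in tumor lines (median 0.0804). Notum reached 1 TPM in 7 lines and missed the threshold (2.75 on the log2 scale, SE 1.09, adjusted p = 0.101). Of 16 genes of the cytoplasm and nucleus 14 were tested and 2 were higher, the TCF factor Tcf7 (1.59 on the log2 scale, SE 0.35, adjusted p = 0.0125) and Pygo2, a nuclear partner of beta-catenin through Bcl9 (0.55, SE 0.12, adjusted p = 0.0140), with a list median of -0.01. Ctnnb1, which encodes beta-catenin, had 377 to 784 TPM in metastasis lines and 439 to 630 TPM in tumor lines (-0.14 on the log2 scale, SE 0.14, adjusted p = 0.519). Of 12 genes known as feedback targets 9 were tested and 3 were higher, Axin2 (1.65 on the log2 scale, SE 0.34, adjusted p = 0.00964), Apcdd1 and Tcf7, with a list median of 0.98. The shares called were 50% of the secreted modulators tested, 14.3% of the cytoplasm and nucleus genes and 33.3% of the feedback targets. Of all genes tested 16.5% passed, 6.59% higher and 9.92% lower. Tcf7, Axin2 and Apcdd1 had been seen to be higher in these samples before the lists were chosen, so their counts are no independent evidence.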

How the data were processed

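Ribosome-depleted total RNA of 16 organoid lines was sequenced with a stranded kit, per the labels' protocols. Per the submitters' processing notes, FastQC 0.11.8, STAR 2.6.0c and RSEM 1.3.1 were used with GRCm38.p6; the annotation release and the strand setting of counting are not given in the sources used here. Per the file headers, the authors deposited expected counts and TPM per gene, and the percent of each gene assigned to each isoform. RSEM divides reads among similar sequences.

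Expected counts were rounded. TPM was rescaled to its deposited total after leaving out 3 genes that collect ribosomal RNA reads. Of 55487 gene identifiers, 55394 matched GENCODE M21. Stages were compared by quasi-likelihood tests in edgeR 4.0.16 under R 4.3.3, with TMM factors, filterByExpr by stage, mouse and stage terms, and Benjamini-Hochberg adjustment over 15573 genes at 0.05. Differences within mice are log2 CPM with a prior count of 2. Mouse and site terms were tested by F tests. The mouse labels pair the lines: after centring on the stage means, the correlation averaged 0.261 between lines that share a mouse and -0.116 between lines that do not. Nothing says that lines of 1 mouse are more than separate cultures, so p-values partly measure the spread between lines. Intervals and floors from counts cover counting error only.

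The members and lists were chosen with earlier results of these data known. The text names each member at 1 TPM in some line, each called gene, the highest line of lower members, each called gene of the other lists, and Lgr4, Lgr5, Rnf43, Znrf3 and Ctnnb1; other choices were made after values were seen. Promoter sequences came from RefSeq tables, which matched 28 of the 44 members. Alternatives were no mouse term, RLE factors, other count filters, DESeq2 1.42.0, limma 3.58.1 on log2 TPM, counts summed per mouse, libraries, mice or ribosomal RNA genes left out, and a robust fit; the ribosomal RNA share as a covariate and levels from TMM-scaled counts per kb were added after seeing the data. Scripts were tested on simulated data with known changes.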

Additional observations from a re-analysis of the deposited data

Results flagged for a closer look

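Among 60 groups of lines checked for a line far from the others, 10 had one. The groups reuse the same lines and mice, so this count was not set against a rate from chance. The peritoneal line of mouse 3, metastasis replicate 2, was named most often. Its Fzd1 level of 24.2 TPM compared with at most 6.06 TPM in the other metastasis lines, and its Fzd3 level of 0.0241 TPM with at least 0.215 TPM. The same line was lowest for the R-spondin receptor Lgr5 at 1.04 TPM, for the polarity co-receptor Ptk7 at 1.31 TPM and for the membrane inhibitor Apcdd1 at 0.398 TPM, where the other metastasis lines had at least 2.53, 3.44 and 0.823 TPM.

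Tumor replicate 6 of mouse 6 was flagged against the other tumor lines for 3 genes. Its Porcn level was 33.0 TPM, against at most 9.53 TPM in the other tumor lines. Its Fzd6 level was 10.99 TPM and its Fzd8 level 0.0700 TPM, where the other tumor lines had at least 18.6 and 0.340 TPM. In the metastasis lines of mouse 6, Porcn had 16.3 to 22.3 TPM, Fzd6 14.1 to 20.9 TPM and Fzd8 0.0500 to 0.167 TPM. Wnt7a was not among the 3 flagged genes, yet it had 16.7 TPM in tumor replicate 6. Tumor replicate 7 had 2.88 TPM of Wnt7a, and the tumor lines of mice 1 to 5 at most 1.59 TPM. Notum was also highest among tumor lines in replicate 6, at 6.52 TPM against a tumor median of 0.0804 TPM.

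Fzd8 in the peritoneal line of mouse 2, metastasis replicate 9, was 1.15 TPM, with at most 0.167 TPM in the other metastasis lines. Wnt5b in the diaphragm line of mouse 5, metastasis replicate 4, was 0.431 TPM, with at most 0.190 TPM in the others; ribosomal RNA genes took 72.7% of the counts of that library.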

How the results depend on the processing

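Of 866 gene values recomputed under alternatives, 755 kept their direction and side of the threshold, 79 lost the call, 14 gained one and 18 changed sign. The 4 called members kept their direction throughout. The number of members called between stages was 7 with DESeq2, 1 with counts summed per mouse and stage (Wnt10a), 1 without the 2 libraries richest in ribosomal RNA (Fzd8), 0 with the ribosomal RNA share as a covariate, and 0 to 6 with single lines left out. With no replicate block, that is without the mouse terms, 3 members and 2219 genes were called, and Fzd8 lost its call. Over all genes, DESeq2 called 3968 (25.5%), counts summed per mouse and stage 2402 (15.5%) and the fit without the 2 libraries 794 (5.02%). Fits without single lines called 1133 to 3910 (7.19% to 24.7%), highest without tumor replicate 6. Leaving out a line of mice 1 to 4 also leaves its partner without a comparison. Leaving out tumor replicate 5, the fit with 1133 genes called, does so for both metastasis lines of mouse 5. What made the counts differ between these fits was not tested. Between mice, 1 member (Wnt7a) and 1.76% of all genes were called with no filter on low counts. DESeq2 called 5 members and 12.1% of all genes. With single lines left out, 0 to 1 members were called, beside 0.0257% to 2.35% of all genes. Between sites the count of members was 0 in all alternatives run. At 2 TPM, 5 members instead of 8 reached the level in some lines only.

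Sign changes concerned genes that were never called. Over the single lines left out, Wnt7b ran from -0.020 to 0.25, Fzd5 from -0.032 to 0.17, Fzd6 from -0.049 to 0.22, Lrp5 from -0.046 to 0.093 and Rnf43 from -0.12 to 0.14 in log2 fold change. With the ribosomal RNA share as a covariate Lrp5 was at -0.018. Rnf43 was at 0.030 with no replicate block and at 0.090 without the 2 libraries richest in ribosomal RNA. Without those 2 libraries Apcdd1 (adjusted p = 0.0533) and Tcf7 (adjusted p = 0.0512) also missed the threshold. Metastasis replicate 4 held 6722467 counts outside the ribosomal RNA genes, so members under about 0.446 CPM there rest on 3 counts or fewer.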
